A study of Mus musculus with 10 samples.

Results

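Expression of 10 genes of the elastic fibre was followed on all 10 arrays of a study of stretched mouse back skin: Eln, Fbn1, Fbn2, Fbln1, Fbln2, Fbln5, Efemp2, Mfap2, Mfap4 and Mfap5. They were taken by symbol from the platform's probe-to-gene table, which named 19505 genes, and 8 of the 10 had a named probe set, 1 each. Fbn1 and Efemp2 were not analysed here. All 8 measured members passed the filter on low levels and were among the 13653 genes tested. The mice were C57BL/6J, 9 weeks old at the start. Expanded skin (4 arrays) lay over a silicone expander filled stepwise with PBS, and non-expanded skin (4 arrays) lay over an implanted expander that was never filled. Each arm had 1 array at days 0, 7, 14 and 21 after the last filling. Skin of wildtype mice with no implant gave 1 array in anagen, when hair grows, and 1 in telogen, when it rests. The non-expanded arm thus carried the surgery and the implant, the skin without an implant carried neither, and the labels do not say whether an array held 1 mouse or a pool. RNA came from whole skin, so fewer cells of a type and less RNA per cell cannot be told apart. The expanded array of day 7 had hair shaft markers far above the rest of its arm. Among non-expanded arrays, that of day 7 held the highest level of its arm for 7 of the 8 members, and differences between the arms are therefore also given without that day.

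Elastic fibres give skin its recoil. Fibrillins and small glycoproteins of the MAGP type form microfibrils, on which soluble tropoelastin is laid down with the help of fibulins and then cross-linked by lysyl oxidases. In skin, dermal fibroblasts make most of these proteins, and in adult tissue elastin is replaced very slowly.

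The 8 measured genes fell into an elastin core (Eln), fibulins (Fbln1, Fbln2, Fbln5) and microfibril or microfibril-associated proteins (Fbn2, Mfap2, Mfap4, Mfap5). They lay on different chromosomes apart from Fbln2 and Mfap5, both on chromosome 6. Eln was at chromosome 5, 134702595 to 134747368, Fbln5 at chromosome 12, 101746565 to 101819119, Mfap5 at chromosome 6, 122513584 to 122529290, and Mfap2 at chromosome 4, 141010424 to 141015976 (GRCm38.p6, the patched mm10 assembly). Fbln1 was at chromosome 15, 85205949 to 85286294, Fbln2 at chromosome 6, 91212460 to 91272540 and Mfap4 at chromosome 11, 61485431 to 61488708, on the same assembly. Promoter windows in RefSeq, from 250 bases before to 50 after an annotated start, were found for 6 of the 10 genes. Fbln5 was the member higher in expanded than in non-expanded skin on all 4 days. Mfap2 was the member lower in expanded skin on average, though slightly higher at days 0 and 21. Windows of these genes are shown because they differed in opposite directions between the arms on average. Both run 5′ to 3′ on the gene's own strand, and capitals mark motif matches. The Fbln5 window is chr12:101819070-101819369 on the minus strand, and the Mfap2 window, 1 of its 2 annotated starts, is chr4:141010174-141010473 on the plus strand.

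Fbln5: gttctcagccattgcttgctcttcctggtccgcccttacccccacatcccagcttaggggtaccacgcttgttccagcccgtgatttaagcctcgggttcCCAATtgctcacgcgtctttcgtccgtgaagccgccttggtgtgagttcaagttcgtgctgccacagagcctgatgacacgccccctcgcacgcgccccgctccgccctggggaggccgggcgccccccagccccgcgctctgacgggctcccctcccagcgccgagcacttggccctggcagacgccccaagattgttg
Mfap2: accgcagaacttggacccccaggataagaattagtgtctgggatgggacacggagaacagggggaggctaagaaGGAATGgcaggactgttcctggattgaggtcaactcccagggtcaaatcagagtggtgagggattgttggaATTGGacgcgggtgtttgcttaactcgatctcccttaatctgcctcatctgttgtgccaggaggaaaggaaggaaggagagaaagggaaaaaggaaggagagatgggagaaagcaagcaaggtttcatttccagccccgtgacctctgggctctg

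These windows were searched on both strands for the TEAD motif GGAATG, the AP-1 motif TGANTCA, the CArG box bound by SRF, CCAAT and TATAAA. The Fbln5 window held 1 match, CCAAT at bases 101 to 105, and the Mfap2 window held GGAATG at bases 75 to 80 and CCAAT on the opposite strand at bases 146 to 150, with no overlap between them. GGAATG was found in 14.7% of all 32851 promoter windows of this length, CCAAT in 37.4%, TATAAA in 13.6%, TGANTCA in 7.81% and the CArG box in 1.63%. The other promoter windows of the members held none of the 5 motifs. A match is a run of letters, and no binding was measured.

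The clearest difference was between expanded skin and skin with no implant: all 8 members were higher in expanded skin (50.6% of all genes were), and every expanded array read above both arrays without an implant for each of them. Among all genes tested, 14% met this condition. Levels are the deposited log2 signals, and differences are log2 differences ± standard error from limma fits over all genes, with p-values adjusted over all 13653 genes. At an adjusted p under 0.05, 3 of the 8 members rose, Eln, Mfap5 and Fbln5, where 0.447% of all genes were called higher and 0.476% in either direction. All 8 had an unadjusted limma p under 0.05, against 10.7% of all genes on the higher side. Over the 12 alternatives 6 to 8 members did, with no share of all genes taken. The median difference of the members was 2.42, against 0.01 for all genes tested.

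Eln encodes tropoelastin, the monomer of the elastic core. Its level was 13.34, 11.13, 13.23 and 12.54 in expanded skin at days 0, 7, 14 and 21, against 9.76, 11.68, 10.93 and 9.42 in non-expanded skin, 8.99 in anagen skin and 7.50 in telogen skin. The expanded arrays of days 0, 14 and 21 stood above all others, and that of day 7 lay below the non-expanded array of the same day. Against skin with no implant Eln was higher by 4.31 ± 0.77 in expanded skin (limma adjusted p = 0.0466), a 19.9-fold ratio on the deposited scale. In non-expanded skin it was higher by 2.20 ± 0.77 and was not called (adjusted p = 0.217). Without the telogen array this difference was 1.46, with an unadjusted limma p above 0.05.

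Mfap5 encodes MAGP2, a microfibril glycoprotein. Its level was 12.93, 12.27, 13.52 and 10.90 in expanded skin over the days, against 11.30, 12.23, 10.27 and 11.51 in non-expanded skin, 7.85 in anagen skin and 8.34 in telogen skin. All 8 arrays with an implant thus read above both without one, and the arms overlapped. The difference from skin with no implant was 4.31 ± 0.69 for expanded skin (limma adjusted p = 0.0359) and 3.23 ± 0.69 for non-expanded skin (adjusted p = 0.0835).

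Fbln5 encodes the fibulin that tethers tropoelastin to microfibrils and is needed for normal elastic fibres in mouse skin. Its level was 13.07, 13.34, 12.58 and 12.07 in expanded skin, against 10.72, 12.01, 11.06 and 11.80 in non-expanded skin, 9.74 in anagen skin and 10.14 in telogen skin. Each expanded array was above each non-expanded array, which was above both arrays without an implant, although at day 21 the arms were only 0.27 apart. Fbln5 was higher by 2.83 ± 0.45 in expanded skin than with no implant (limma adjusted p = 0.0359), and by 1.46 ± 0.45 in non-expanded skin (adjusted p = 0.172).

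**Figure D1:**
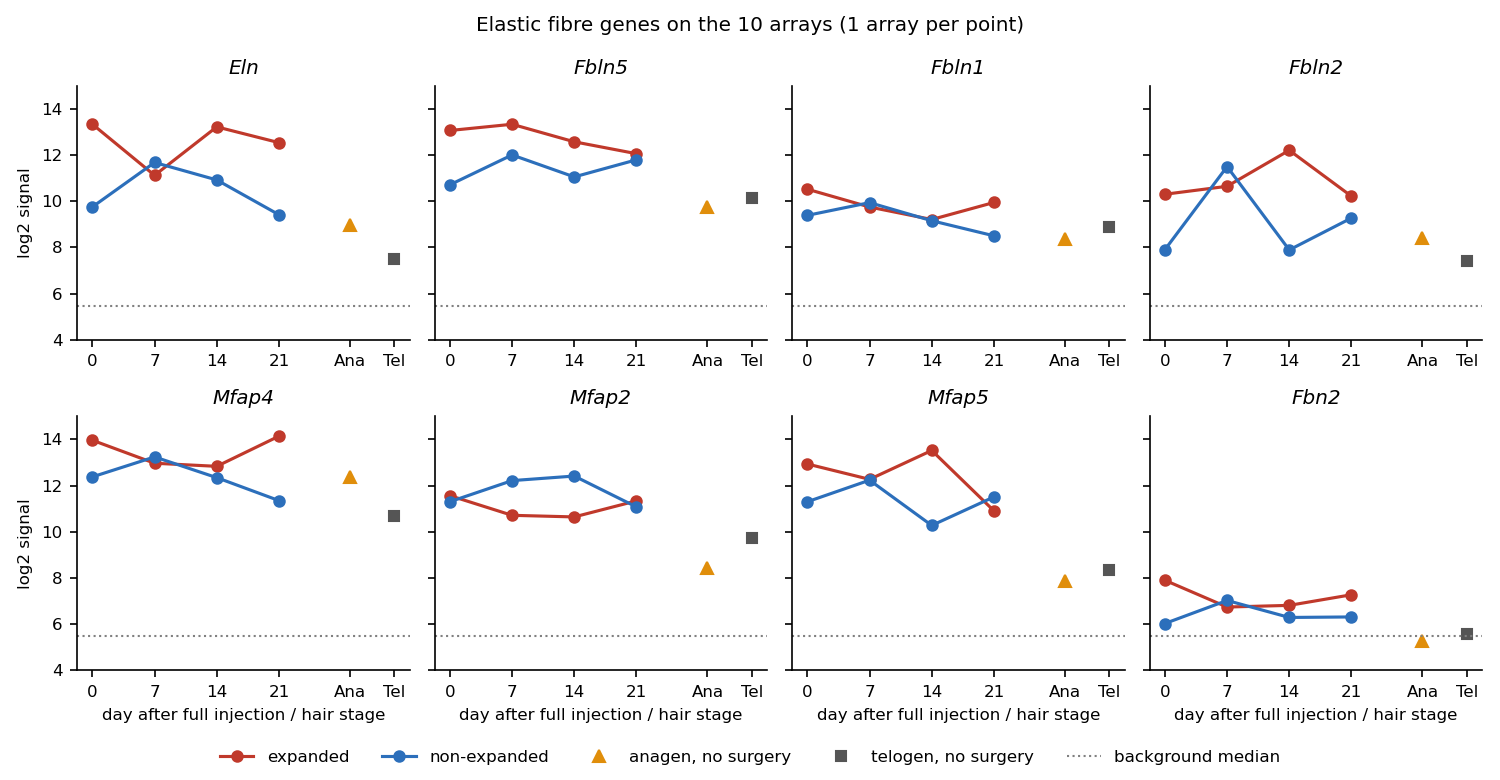
Log2 signal (vertical axis) of the 8 measured elastic fibre genes by day after full injection, with expanded skin in red and non-expanded skin in blue, and anagen and telogen skin without surgery at the right. Each point is 1 array and the dotted line is the background median of 5.46. In every panel the expanded points lie above both points without surgery, and in 7 of 8 panels the non-expanded arm is highest at day 7.

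The remaining fibulins and the other microfibril genes were also higher in expanded skin than with no implant, without passing the adjusted threshold. Fbln2, whose fibulin binds both tropoelastin and fibrillin, read 10.31, 10.65, 12.21 and 10.22 in expanded skin, against 7.90, 11.51, 7.89 and 9.28 in non-expanded skin, 8.41 in anagen skin and 7.41 in telogen skin. It was the most variable member within the non-expanded arm (SD 1.70, n = 4), where day 7 stood above the other days. Fbln1, found in elastic fibres and basement membranes, read 10.53, 9.75, 9.21 and 9.95 in expanded skin, against 9.39, 9.94, 9.16 and 8.51 in non-expanded skin, 8.37 in anagen skin and 8.90 in telogen skin. The differences of expanded skin from skin with no implant were 2.94 ± 0.96 for Fbln2 (limma adjusted p = 0.166) and 1.23 ± 0.45 for Fbln1 (adjusted p = 0.211).

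Mfap4, a protein that binds tropoelastin and fibrillin, read 13.96, 12.97, 12.83 and 14.14 in expanded skin, against 12.38, 13.24, 12.34 and 11.35 in non-expanded skin, 12.38 in anagen skin and 10.67 in telogen skin. Its non-expanded arrays overlapped with the anagen array. Fbn2, the fibrillin best known from developing tissue, was the dimmest member, with 7.89, 6.73, 6.81 and 7.27 in expanded skin, against 6.02, 7.02, 6.28 and 6.30 in non-expanded skin, 5.25 in anagen skin and 5.58 in telogen skin. The anagen value lay below the background median of 5.46 and the telogen value close to it, so the size of the Fbn2 difference is limited by background. Expanded skin differed from skin with no implant by 1.95 ± 0.62 for Mfap4 (limma adjusted p = 0.158; 1.10 without the telogen array and 2.80 without the anagen array) and by 1.76 ± 0.40 for Fbn2 (adjusted p = 0.0717).

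Mfap2, which encodes the microfibril glycoprotein MAGP1, had another order of groups. It read 11.56, 10.71, 10.64 and 11.34 in expanded skin, against 11.30, 12.21, 12.41 and 11.07 in non-expanded skin, 8.41 in anagen skin and 9.71 in telogen skin. Every array with an implant was above both without one, and the highest values were those of non-expanded skin at days 7 and 14. The difference from skin with no implant was 2.00 ± 0.50 for expanded skin (limma adjusted p = 0.0908) and 2.69 ± 0.50 for non-expanded skin (adjusted p = 0.0739).

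The calls against skin with no implant rested on few arrays. Without the expanded array of day 0 or of day 14, or without the anagen array, 0 of the 8 members were called, without the expanded array of day 7 only Eln was, and without that of day 21 Mfap5 and Fbln5 but not Eln. Without the telogen array 5 were called, Eln, Fbln5, Mfap5, Fbn2 and Mfap2, and 1850 genes in place of 65; in that fit the lone anagen array is assumed to vary like the other groups. With no filter on dim genes Fbln5 alone was called, and all 8 members were higher in expanded skin under each of the 12 alternatives.

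Non-expanded skin, which carried both the surgery and the unfilled expander, was compared with skin without an implant. The parts of surgery and expander cannot be told apart in this contrast. All 8 members averaged higher in non-expanded skin (50.7% of all genes did), with a median difference of 1.35 against 0.01 for all genes, and 5 of them, Eln, Fbn2, Fbln5, Mfap2 and Mfap5, did not overlap with either array without an implant, a condition met by 11.5% of all genes. The same 5 had an unadjusted limma p under 0.05, against 9.42% of all genes on the higher side, and 4 to 5 members did over the 12 alternatives. No member and no gene at all was called (0 of 13653, while 2144 genes or 15.7% had an unadjusted p under 0.05). This contrast and the one above share the arrays without an implant and are not independent. Without the telogen array 2645 genes were called, among them Mfap2 and Mfap5, and without the non-expanded array of day 14 112 genes were, none a member. Without the telogen array the Mfap4 difference was -0.053, against 0.80 with it.

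**Figure D2:**
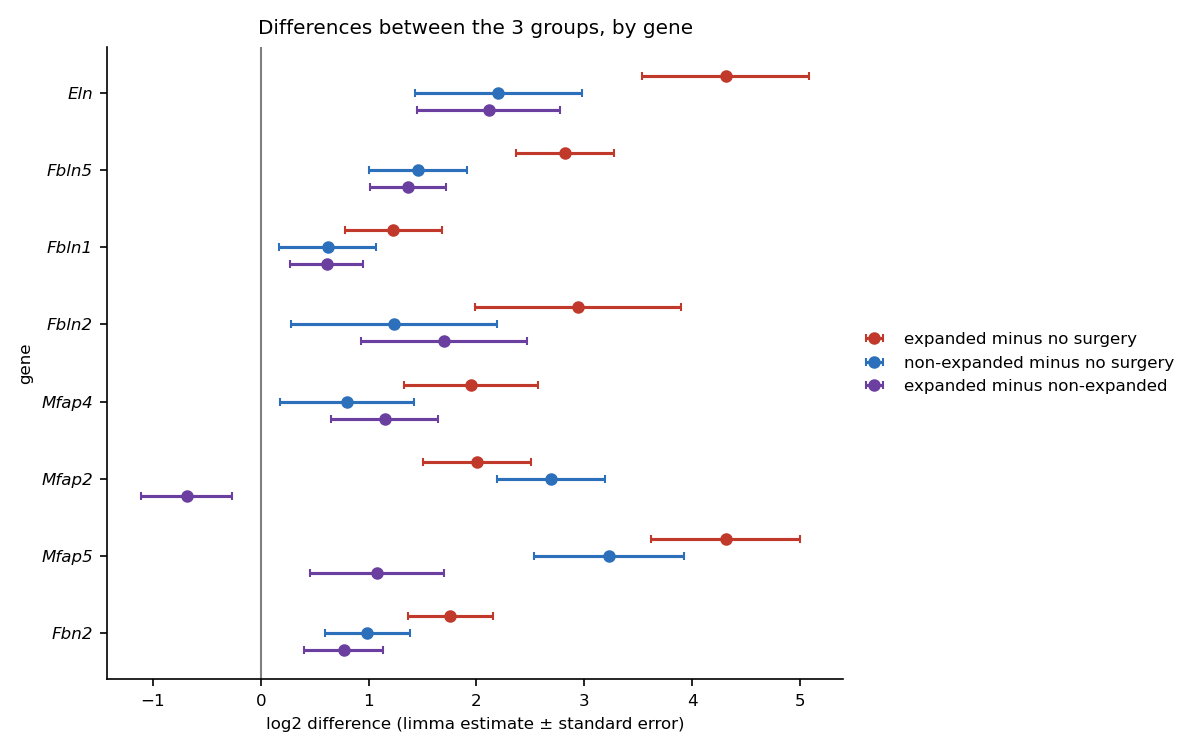
Log2 differences (horizontal axis, limma estimate with standard error as bars) for each measured gene: expanded minus no surgery in red, non-expanded minus no surgery in blue and expanded minus non-expanded in purple. Mfap2 is the member whose purple point lies below 0, at -0.69, and Eln and Mfap5 have the largest red values, both 4.31.

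Filling itself was tested by setting expanded against non-expanded skin with the day as a block. Of the 8 members, 7 averaged higher in expanded skin and Mfap2 lower, against 52.5% of all genes higher, with a median difference of 1.11 against 0.02 for all genes. The mean level of Eln was 12.56 ± 1.02 for the expanded arm and 10.45 ± 1.05 for the non-expanded one (SD over 4 arrays), and the difference was 2.11 ± 0.66 (limma adjusted p = 0.467). For Fbln5 the mean was 12.76 ± 0.56 in the expanded arm and 11.40 ± 0.61 in the non-expanded one, and the difference was 1.37 ± 0.35 (limma adjusted p = 0.373). Fbln5 was the member whose arms did not overlap, as was so on the higher side for 2.97% of all genes, and the member higher on all 4 days, as 9.18% of all genes were.

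The differences of the other members between the arms did not pass the test, with unadjusted limma p-values from 0.056 for Mfap4 to 0.152 for Mfap2. They were 1.70 ± 0.77 for Fbln2, 1.15 ± 0.50 for Mfap4, 1.08 ± 0.62 for Mfap5, 0.77 ± 0.37 for Fbn2, 0.61 ± 0.34 for Fbln1 and -0.69 ± 0.42 for Mfap2. No member passed the adjusted threshold, nor did any of the 13653 genes. Eln and Fbln5 were the 2 members with an unadjusted limma p under 0.05, against 4.83% of all genes on the higher side and 8.8% on either. Over the 13 alternatives this count ranged from 1 to 7; it was 1 without day 0 or without day 14, and Eln was no longer under 0.05 without day 0, day 14 or day 21. Without the block by day, 4 members had an unadjusted limma p under 0.05, and 2 genes were called, neither of them a member. The shares of all genes above belong to the main fit, and none were taken for the alternatives. The groups had 4 arrays each, and an exact permutation of the 4 pairs cannot go below p = 0.125.

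Day 7 differed from the other days. At day 0 all 8 members were higher in expanded skin, 7 of them at least 2-fold (9.49% of all genes were) and 0 at least 2-fold lower (6.18%), with a median difference of 1.75. At day 7 only Fbln5 and, by 0.04, Mfap5 were higher, and the median was -0.28, with 1 member at least 2-fold higher (8.45% of all genes) and 1, Mfap2, at least 2-fold lower (9.43%). At day 14, 7 of 8 were higher with a median of 1.02, 4 of them at least 2-fold (11.4%) and Mfap2 at least 2-fold lower (8.85%). At day 21, 7 of 8 were higher with a median of 0.95, 3 of them at least 2-fold (6.69%) and 0 at least 2-fold lower (6.13%), and Mfap5 was the exception, at -0.60. These are differences of 1 array from 1 array and carry no test.

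**Figure D3:**
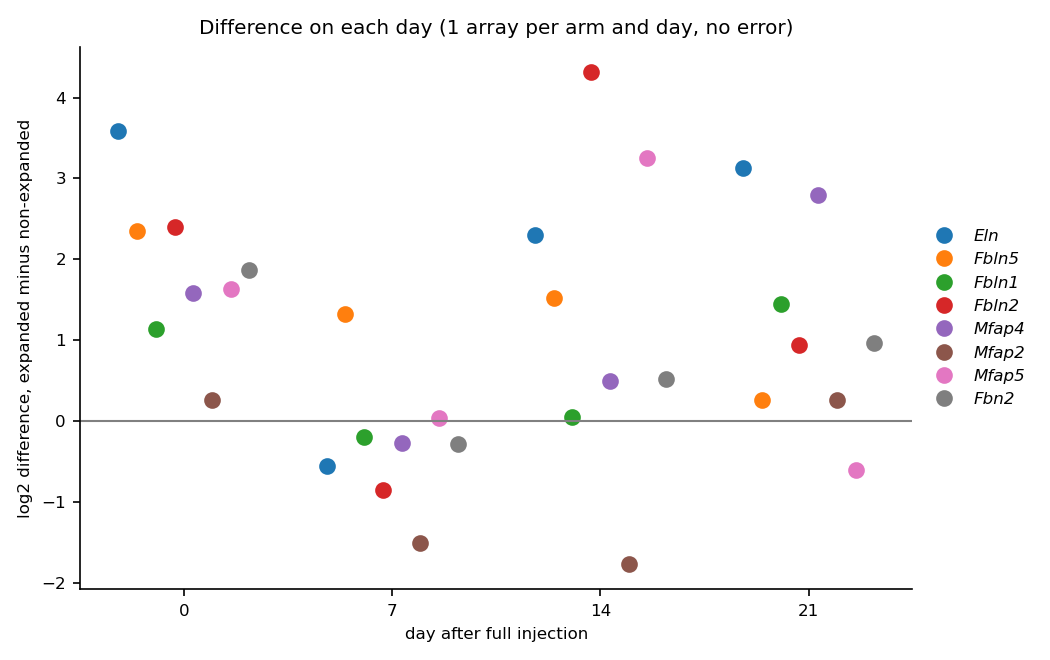
Log2 difference between the expanded and the non-expanded array (vertical axis) on each day after full injection (horizontal axis), with 1 point per gene and no error because each arm has 1 array a day. The points lie above 0 at day 0, mostly at or below 0 at day 7, and above 0 for 7 of 8 genes at days 14 and 21.

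At day 7 both arrays differed from the others of their arm. On the expanded array of day 7 the 6 hair shaft markers averaged 11.38, against 4.75, 5.38 and 5.74 on the expanded arrays of days 0, 14 and 21. Eln was at its lowest for the arm there. The skeletal muscle markers averaged 13.09 on it, close to the 13.50 of day 14, against 15.89 at day 0 and 15.61 at day 21. The non-expanded array of day 7 held the highest value of its arm for 7 of the 8 members, Mfap2 being highest at day 14. The mean level of the 8 members was 11.70, 10.94, 11.38 and 11.05 on the expanded arrays in order of day, against 9.85, 11.23, 10.04 and 9.90 on the non-expanded ones. On the non-expanded array of day 7 the 7 fibroblast markers averaged 14.09 (13.27 to 13.80 on the other non-expanded arrays) and the 4 macrophage markers 15.34 (13.25 to 15.00). The day 7 peak was not particular to the members. Fibrillar collagens averaged 13.57 on that array (11.56 to 12.34 on the others), and genes of assembly and cross-linking 9.27 (8.26 to 8.49). Keratinocyte markers were at their lowest for the arm there, at 15.96, but close to the 16.03 of day 21. Adipocyte markers were at their lowest too, at 9.05 (10.07 to 11.12 on the others). The part of these in the day 7 values was not tested. Day 7 was left out because of the members' own levels on its non-expanded array, so larger differences without it are partly built in. Without day 7, the differences between the arms were 3.00 for Eln (limma adjusted p = 0.17) and 2.56 for Fbln2 (adjusted p = 0.255). The others differed by 1.62 for Mfap4, 1.43 for Mfap5, 1.38 for Fbln5, 1.12 for Fbn2, 0.88 for Fbln1 and -0.42 for Mfap2. In that fit 6 members had an unadjusted limma p under 0.05, with no share of all genes taken, and no member was called. Without day 14 the Fbln2 difference was 0.83 and the Mfap5 difference 0.36, without day 21 that of Fbln1 was 0.33 and that of Mfap4 0.60, and without day 0 that of Fbn2 was 0.40. Without day 14 Mfap2 differed by -0.33.

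Eln and Mfap2 differed in opposite directions between the arms on average. By day their signs were opposite only at day 14, at 2.30 for Eln and -1.77 for Mfap2. Both were higher in expanded skin at days 0 and 21, where Mfap2 differed by 0.26 each time, and both were lower at day 7. The change of Eln minus the change of Mfap2, expanded against non-expanded, was 3.32, 0.95, 4.07 and 2.86 at days 0, 7, 14 and 21, above 0 on all 4 days, with a mean of 2.80 ± 1.33 (SD, n = 4 days). The pair was chosen after its values were seen and was not tested.

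Changes over the 21 days did not pass the test for any of these genes. Straight lines within each arm gave changes over 21 days from -1.45 to 0.39 in expanded skin and from -1.19 to 0.69 in non-expanded skin, and differences between these slopes from -1.82 to 1.31. None of the 8 members had an unadjusted limma p under 0.05 in any of the 3, where 2.48%, 3.63% and 1.22% of all genes did, and no gene was called at an adjusted p under 0.05. A line through 4 arrays cannot show a rise and fall within the period.

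Hair stage was compared on 1 array a side. Eln, Fbln2 and Mfap4 were at least 2-fold higher in anagen skin, by 1.49, 1.00 and 1.71, as 23.5% of all genes were. Mfap2 was at least 2-fold lower, by -1.30, as 20.4% of all genes were, and the other members differed by -0.53 to -0.33. The gap between the 2 arrays without an implant was smaller than the difference of expanded skin from their mean for each of the 8 members. For non-expanded skin this did not hold for Mfap4, with a gap of 1.71 against a difference of 0.80. For Fbln1 the gap of 0.53 was close to the difference of 0.62. The part of hair stage in these differences was not tested.

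The enzymes and helpers that assemble elastic fibres were looked at as a list of 26 genes, of which 23 were tested. In expanded skin against skin with no implant 20 of 23 were higher, with a median of 0.64, and 3 rose at an adjusted p under 0.05 (0.447% of all genes did), all lysyl oxidases, which cross-link elastin and collagen. Lox itself read 17.47, 16.96, 17.65 and 16.91 in expanded skin, against 15.86, 16.21, 15.47 and 14.86 in non-expanded skin, 12.26 in anagen skin and 13.23 in telogen skin. The 3 sets of Lox values did not overlap. Among all genes, 2.97% had every expanded array above every non-expanded one, and 11.5% every non-expanded array above both without an implant. No share was taken for both conditions together. Some Lox values exceeded 16, the most a scanner of 16 bits can record in log2, so Lox differences may be stretched. No array of a member exceeded 16. Deposited values ran up to 19.88, with 586 probe sets above 16 on some array, so the scale of the member differences may be stretched too. Lox was higher by 4.51 ± 0.43 in expanded skin than with no implant (limma adjusted p = 0.00635), a call kept under all 12 alternatives, and by 2.86 ± 0.43 in non-expanded skin (adjusted p = 0.0646). Loxl1, whose enzyme binds the product of Fbln5, was higher in expanded skin by 3.91 ± 0.68 (limma adjusted p = 0.0432) and in non-expanded skin by 3.72 ± 0.68 (adjusted p = 0.0739). Loxl3 was higher by 3.52 ± 0.59 (limma adjusted p = 0.0406) and 2.98 ± 0.59 (adjusted p = 0.0739). The Loxl1 and Loxl3 calls were both lost without the expanded array of day 0, 7 or 14, without the anagen array or with no filter on dim genes. Between the arms 16 of 23 were higher, with a median of 0.19 and none called, and 3 had an unadjusted limma p under 0.05, where 8.8% of all genes did: Lox at 1.65 ± 0.30, Ltbp3, which holds latent TGF-beta in the matrix, at 1.01 ± 0.35, and Efemp1, the gene of another fibulin, at -1.10 ± 0.37.

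Proteases that cut elastin and their inhibitors, 13 of 16 listed genes tested, were higher in 12 of 13 cases in expanded skin against skin with no implant, with a median of 1.13 and none called. Mmp12, the macrophage elastase, read 17.28, 15.66, 12.92 and 12.86 in expanded skin, against 15.81, 14.14, 11.42 and 10.19 in non-expanded skin, 5.48 in anagen skin and 7.10 in telogen skin. Both arms were highest at day 0. The anagen value lay at the background median of 5.46, which limits the size of the difference from skin with no implant. The expanded value of day 0 lay above the scanner limit of 16, so the following differences may also be stretched, as for Lox. Mmp12 differed by 8.39 ± 1.62 between expanded skin and skin with no implant (limma adjusted p = 0.0602) and by 1.79 ± 0.28 between the arms (adjusted p = 0.268). Of 9 integrin genes for receptors of elastic fibre proteins, 6 were higher in expanded than in non-expanded skin, with a median of 0.34, and Itgb5 differed by 0.91 ± 0.29 (limma adjusted p = 0.467).

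Fibrillar collagens, the other main fibre of the dermis, are given for comparison. Of 7 genes, 6 were higher in expanded than in non-expanded skin, with a median of 0.21, against 1.11 for the elastic fibre genes. Against skin with no implant all 7 were higher in expanded skin, with a median of 0.72, against 2.42, and 0 of the 7 were called. The medians between the arms include day 7, when the non-expanded array was the highest of its arm for both lists. The difference between the lists was not tested. Col11a1, of a minor fibrillar collagen, was the collagen with the smallest p between the arms, at 0.97 ± 0.21 (limma adjusted p = 0.331).

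Markers of the cells in whole skin moved between the groups too. The keratinocyte markers averaged 16.86 to 17.48 in expanded skin, 15.96 to 17.15 in non-expanded skin, 15.30 in anagen skin and 16.26 in telogen skin, high on every array of this skin tissue. Fibroblast markers (7 of 8 on the array by name) averaged 13.07 to 13.62 in expanded skin, 13.27 to 14.09 in non-expanded skin, 11.60 in anagen skin and 13.05 in telogen skin. Between the arms 6 of the 7 fibroblast markers were lower in expanded skin, and against skin with no implant 6 of 7 were higher. Macrophage markers (4 of 5) averaged 13.08 to 14.37 in expanded skin, 13.25 to 15.34 in non-expanded skin, 10.04 in anagen skin and 12.01 in telogen skin. Smooth muscle and pericyte markers, whose cells also make elastin, averaged 8.82 to 9.42 in expanded skin, 8.79 to 9.61 in non-expanded skin, 9.17 in anagen skin and 9.26 in telogen skin. Skeletal muscle markers averaged 13.09 to 15.89 in expanded skin and 16.00 to 16.97 in non-expanded skin, 13.85 in anagen skin and 17.33 in telogen skin. Endothelial markers averaged 9.56 to 10.77, 9.71 to 11.11, 8.36 and 9.93 in the same order, adipocyte markers 9.35 to 10.14, 9.05 to 11.12, 11.61 and 11.08, and hair shaft markers 4.75 to 11.38 (highest at day 7), 4.43 to 7.25 (highest at day 14), 15.89 and 6.44. All 9 skeletal muscle markers were lower in expanded than in non-expanded skin, with a median of -2.02 and none called. Of them 7 had an unadjusted limma p under 0.05, against 8.8% of all genes in either direction. All 6 keratinocyte markers were higher, 3 of them at that threshold and none called. The 5 endothelial, 4 macrophage and 5 adipocyte markers were all lower and the 6 hair shaft markers all higher, none at that threshold. The part of these cells in the elastic fibre results was not tested.

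Genes outside the members were ranked by how near their profile was to that of Eln. The measure was the root mean square difference of log2 levels, each centred on its mean over the 10 arrays. Predicted genes, small RNA genes and some receptor families were left out. Nearest was Ccn5, a matricellular protein gene, at 0.47, followed by Cilp, a matrix protein gene named for cartilage, at 0.79, Lox at 0.85, Angpt2, an angiopoietin gene, at 0.88, and Col6a2, a collagen VI chain gene, at 0.88. The members themselves lay from 1.07 for Mfap4 to 1.56 for Mfap2 from Eln. The named genes were picked as the nearest of all genes ranked, so that members lie farther is no result. The measure also counts the size of the swings. The range over the 10 arrays was 5.84 for Eln, and from 2.16 for Fbln1 to 5.67 for Mfap5 among the other members. Ccn5 read 12.23, 10.90, 12.76 and 11.31 in expanded skin, against 8.97, 11.05, 9.28 and 9.47 in non-expanded skin, 8.33 in anagen skin and 6.72 in telogen skin. Like Eln it was lower in expanded than in non-expanded skin at day 7 and higher on the other days. The genes nearest to the mean of the members were Olfml3 and Col6a2 (both 0.22), Bgn (0.28), Myo7a (0.29) and Igf1 (0.30).

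**Figure D4:**
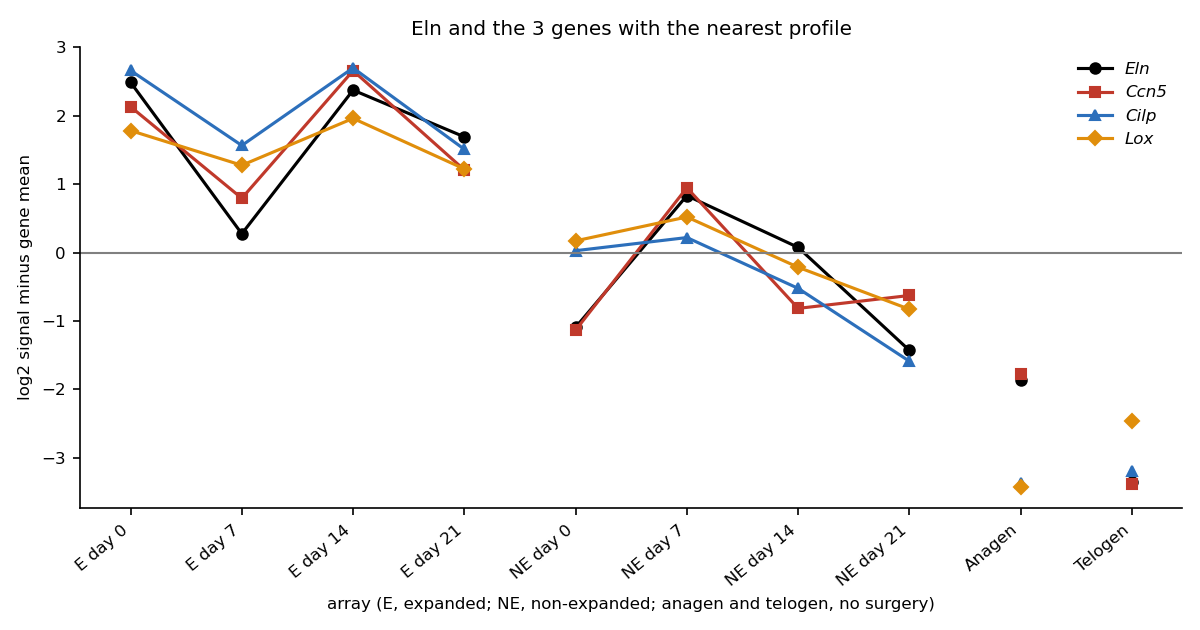
Log2 signal minus the gene's mean over 10 arrays (vertical axis) for Eln, Ccn5, Cilp and Lox on each array (horizontal axis: expanded by day, non-expanded by day, anagen, telogen). Each point is 1 array. At day 7 Eln and Ccn5 both read lower in expanded than in non-expanded skin, and on the other days higher.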

How the data were processed

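Expression was measured on 10 arrays of whole mouse back skin, with biotin labelling by the Affymetrix WT PLUS kit per the labels' protocols. Deposited values, taken as log2 signals per probe set, ran from 1.88 to 19.88, with array medians of 6.27 to 6.45. Per the labels, the log base and the authors' background correction and normalization are not stated; the submitters' processing notes name mm10. The number of arrays limits the precision.

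Genes were named through the platform annotation (19572 of 28846 probe sets, 1 symbol each), with the brightest probe set on average kept for each of the 55 genes with several. Genes with a mean under the 30th percentile (4.86) were left out. Background is the median of 23 background probe sets. limma 3.58.1 in R 4.3.3 (lmFit, eBayes, two-sided, Benjamini-Hochberg) fitted the arms with day as a block (3 residual degrees of freedom), 3 groups over all 10 arrays (7), and lines over days (4). The code was tested on simulated data.

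The labels give each time point number the same day in both arms, which is the pairing used. Arrays of one day, taken as deviations from the mean of their arm, correlated at -0.13, -0.17, -0.10 and 0.36 across genes for days 0, 7, 14 and 21. P-values measure only the spread between these arrays. Members and lists were chosen with earlier results of these data known. All members are named; of each other list, up to 4 genes with the smallest p between the arms, and those that a count of 5 or fewer refers to. Likeness names the 5 nearest genes among those tested, leaving out members, predicted genes, small RNA genes and olfactory and vomeronasal receptor genes. Alternatives covered the block, left-out arrays, normalization, filters, probe set choice and variance moderation.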

Additional observations from a re-analysis of the deposited data

Results flagged for a closer look

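Levels were screened for arrays far from the others of their arm with Dixon's test, over 48 sets of 4 arrays: the 8 members, Lox, Mmp12, Ccn5 and the mean of each gene list, in each arm. None of the 16 sets of single members was past the critical value, and 3 of the 48 sets were, where chance gives about 1 in 20. The mean of the 8 elastic fibre genes on the non-expanded array of day 7, 11.23, stood above the rest of its arm with a gap of 0.857 of the arm's range. The mean of the hair shaft markers stood high at 11.38 on the expanded array of day 7 (0.852 of the range) and at 7.25 on the non-expanded array of day 14 (0.840 of the range). Values of the members without day 7 are given with the differences between the arms.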

How the results depend on the processing

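Between expanded and non-expanded skin, 7 members were higher under all 13 alternatives and none was called under any of them. Expanded skin against skin with no implant kept all 8 members higher under its 12 alternatives, with 0 to 5 members called when 1 array was left out and 1 with no filter on dim genes. Between the arms, 0 genes were called with the day as a block, 2 with no replicate block, 1 in the fit of all 10 arrays and 0 to 1 when a day was left out (1 without day 0). The block changed no call of a member. For implantation, 0 to 2645 genes and 0 to 2 members were called when 1 array was left out, and the Mfap4 difference ranged from -0.053 (without the telogen array) to 1.65. For expanded skin against no implant, 5 to 1850 genes were called when 1 array was left out and 33 with no filter, against 65. Shares of all genes at an unadjusted limma p under 0.05 were taken for the main fits only. The slopes had 0 to 3 members at that threshold over their alternatives. The cause was not tested. Fbn2 near background is the member whose size is limited by signal.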
